A study of Mus musculus with 40 samples.

Results

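The 7 genes described here encode 6 chemoattractant receptors and 1 receptor-like protein that mark or steer myeloid cells, Ccr1, Ccr2, Ccr6, Cxcr3, Cxcr4, Cmklr1 and Ccrl2. They were taken by name from the 54513 named rows of 3 expression tables of CD11b+ cells, the sorted myeloid fraction of the mouse brain and of brain tumors. All 7 were found in all 3 tables, and their levels are given as RPKM, reads scaled to exon length and to the total of the library. The tables hold 35 samples. In the first, C57BL/6 mice carried GL261 gliomas, a transplanted mouse glioma line labelled with tdTomato and luciferase, for 21 days post-implantation (DPI) and received vehicle, 7aaRGD or 7aaRAE, beside naive mice with no tumor, with 3 samples of 2 pooled animals in each of the 4 groups. In the second, single mice carried GL261 gliomas for 28 DPI and received vehicle (4 samples), 7aaRGD (4), anti-PD-1 (3) or both agents, called the combination (3). The sources give the host of this second table differently, as nude mice in the sample labels and as C57BL/6 in the methods. In the third, athymic nude mice (Foxn1nu), which lack mature T cells and keep myeloid cells, carried U87-MG tumors, a human glioblastoma line labelled with a red fluorescent protein, for 21 DPI and received vehicle, 7aaRGD or 7aaRAE, with 3 columns of 2 pooled animals in each group.

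The mice were males of 10 to 12 weeks. Peptides were delivered without interruption into the tumor by osmotic pump in water, which served as the vehicle. 7aaRGD carries the arginine-glycine-aspartate motif that integrins bind, and in 7aaRAE this motif is replaced by arginine-alanine-glutamate, so that it served as the control peptide. Anti-PD-1, an antibody that blocks an inhibitory receptor of T cells, was injected into the peritoneum, and its controls received IgG. The naive nude mice, the fourth anti-PD-1 sample and the fourth combination sample were not analysed here.

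Chemokine receptors are membrane proteins that couple to inhibitory G proteins, turn a chemokine gradient into directed movement, and are then switched off by receptor kinases and arrestins. In the brain, resident microglia carry much Cx3cr1. Monocytes leave the bone marrow and enter inflamed tissue through Ccr2 and its ligands Ccl2, Ccl7 and Ccl12. Ccr1 binds Ccl3, Ccl5, Ccl6, Ccl7 and Ccl9 and is used by macrophages and neutrophils. Cxcr4 binds Cxcl12 and retains cells in the marrow and in hypoxic tissue, Cxcr3 binds the interferon-induced chemokines Cxcl9, Cxcl10 and Cxcl11 and is typical of activated T and NK cells, and Ccr6 binds Ccl20 and is known from B cells, dendritic cells and T helper cells. Cmklr1 is the signalling receptor for chemerin, the product of Rarres2, and Ccrl2 binds chemerin without known signalling of its own and presents it to neighbouring cells.

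By the gene annotation of mm10, the build the reads were aligned to, 3 of the 7 genes lie on chromosome 9. Ccr1 spans chr9:123962124-123968692 on the minus strand, Ccr2 chr9:124101950-124113557 on the plus strand and Ccrl2 chr9:111054486-111057519 on the minus strand. Ccr6 spans chr17:8236043-8257141 on the plus strand and Cxcr3 chrX:101731535-101734269 on the minus strand. Cxcr4 spans chr1:128588199-128592293 and Cmklr1 chr5:113612354-113650426, both on the minus strand.

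Upstream sequences are printed for 4 receptors whose window of 250 bases lay wholly or almost wholly before the annotated start of the gene. Expression played no part in this choice, and Ccr2, which also rose in the glioma-bearing brain, did not meet it. No other annotated gene overlapped the 4 runs. They are RefSeq sequence of build GRCm38.p6, in which all 7 genes were matched. The runs of Ccr1, Ccr6 and Ccrl2 end at the base before the annotated gene start. The Cxcr4 run ends at base 128592300, a few bases short of the annotated start at 128592293. They lie at chr9:123968693-123968942 (minus strand) for Ccr1, chr17:8235793-8236042 (plus strand) for Ccr6, chr1:128592300-128592549 (minus strand) for Cxcr4 and chr9:111057520-111057768 (minus strand) for Ccrl2. Capitals mark matches, on either strand, to TTCNNNGAA (STAT type), GAGGAA (PU.1 type), ACGTG (hypoxia response type) or TGANTCA (AP-1 type).
Ccr1: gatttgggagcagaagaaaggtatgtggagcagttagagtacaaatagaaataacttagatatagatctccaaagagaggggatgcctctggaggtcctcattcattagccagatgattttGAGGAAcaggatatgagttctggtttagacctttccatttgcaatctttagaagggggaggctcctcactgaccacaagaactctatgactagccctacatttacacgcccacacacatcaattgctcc
Ccr6: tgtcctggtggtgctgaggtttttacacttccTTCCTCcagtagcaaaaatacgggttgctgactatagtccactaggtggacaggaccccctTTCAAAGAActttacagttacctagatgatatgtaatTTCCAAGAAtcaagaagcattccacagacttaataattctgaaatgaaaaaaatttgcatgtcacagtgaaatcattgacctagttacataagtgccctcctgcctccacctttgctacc
Cxcr4: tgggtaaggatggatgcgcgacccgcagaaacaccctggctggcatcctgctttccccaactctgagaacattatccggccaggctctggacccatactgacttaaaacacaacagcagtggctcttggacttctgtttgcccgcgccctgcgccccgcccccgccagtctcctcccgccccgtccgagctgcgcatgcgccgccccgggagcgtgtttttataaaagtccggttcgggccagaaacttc
Ccrl2: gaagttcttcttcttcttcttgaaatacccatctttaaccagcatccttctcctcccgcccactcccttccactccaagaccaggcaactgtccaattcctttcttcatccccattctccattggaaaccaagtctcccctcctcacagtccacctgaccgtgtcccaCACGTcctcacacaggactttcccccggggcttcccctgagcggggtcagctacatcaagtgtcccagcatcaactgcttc
The Cxcr4 run had a GC content of 61.2% with 19 CG pairs and no match to the 4 motifs. The Ccr1 run, at 43.6% GC with 1 CG pair, held 1 GAGGAA between 129 and 124 bases before the start. The Ccr6 run, at 41.2% GC with 1 CG pair, held TTCNNNGAA at 157 to 149 and at 120 to 112 bases before the start and GAGGAA on the other strand at 218 to 213. The Ccrl2 run, at 54% GC with 5 CG pairs, held ACGTG on the other strand. The match lay 82 to 78 bases before the first listed of 3 RefSeq start sites, counted over the full 250-base window, of which 249 bases are printed. For the other start sites, matches lay at 99 to 95 and at 125 to 121. Among all 32536 upstream windows of the same table, 7.04% held TTCNNNGAA, 23.4% GAGGAA, 16.7% ACGTG and 6.73% TGANTCA, so the first and the last were uncommon and the others were not. A match here describes the letters and is no evidence that a factor binds there.

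The sorted cells carried the myeloid markers their label calls for. The 8 genes of the CD11b+ list summed to between 3699.7 and 5854 RPKM per sample over all groups, with none of the 8 under 0.1 RPKM in any group mean. Over the same samples, 9 neutrophil markers summed to between 124 and 534 RPKM, 6 plasmacytoid dendritic cell markers to between 169.8 and 534 RPKM, 8 T cell markers to between 0.502 and 12.8 RPKM and 6 markers of the oligodendrocyte lineage, also used by glioma cells, to between 7.45 and 40.2 RPKM. Each sample listed between 9864 and 10725 genes of all types at 1 RPKM or more, and the 10 most abundant genes took between 16.4% and 24.0% of its RPKM. The read depth is unknown, since the values hold no counts, so counting error could not be given, and the precision of each value rests on the spread between samples alone.

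In the naive brain, 1 of the 7 receptors was abundant. Cmklr1 stood at 134, 143 and 131 RPKM and ranked 257 of the 9400 genes at 1 RPKM or more. Ccr1 was at 8.85, 8.53 and 9.87 RPKM, Ccrl2 at 8.59, 8.49 and 8.69 RPKM, Cxcr4 at 7.25, 6.69 and 7.05 RPKM and Ccr2 at 5.63, 5.80 and 5.97 RPKM, so these 4 lay within a narrow band in which only Ccr1 and Ccrl2 overlapped. Cxcr3 was at 1.73, 1.86 and 1.73 RPKM and Ccr6 at 0.978, 0.953 and 0.591 RPKM, the lowest of the 7.

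With a GL261 glioma, 4 of the 7 receptors rose by more than an order of magnitude, from between the 39.9 and 55.1 percentile of genes at 1 RPKM or more to between the 93.8 and 98.2. At 21 DPI, vehicle-treated gliomas gave Cxcr4 at 267, 258 and 254 RPKM, rank 174 of 9390 genes at 1 RPKM or more, against 7.00 ± 0.28 RPKM (SD, n = 3) in naive mice. Ccr1 stood at 174, 158 and 200.05 RPKM, Ccrl2 at 93.7, 129 and 106 RPKM and Ccr2 at 84.2, 66.9 and 94.7 RPKM. Every glioma sample of these 4 genes lay far above every naive sample, and the ratio of the group means was 37.1 for Cxcr4, 19.5 for Ccr1, 14.1 for Ccr2 and 12.7 for Ccrl2.
On the log2(RPKM + 1) scale, limma gave a rise of 5.03 for Cxcr4 (SE 0.053, adjusted p = 2.5e-09), 4.14 for Ccr1 (SE 0.093, adjusted p = 1.2e-08), 3.59 for Ccr2 (SE 0.115, adjusted p = 5.6e-08) and 3.51 for Ccrl2 (SE 0.106, adjusted p = 4.4e-08). In order of level the vehicle samples ran Cxcr4, Ccr1, Cmklr1, Ccrl2, Ccr2, Cxcr3 and Ccr6, and of neighbours in that order only Ccrl2 and Ccr2 overlapped. The other members did not pass. Cmklr1 stood at 140, 147 and 140 RPKM under vehicle, inside and just above the naive range, with a difference of 0.06 (95% interval -0.07 to 0.20, adjusted p = 0.32 in limma). Cxcr3 stood at 2.12, 1.72 and 3.45 RPKM, overlapping the naive samples, with a difference of 0.28 (-0.10 to 0.65, adjusted p = 0.15 in limma). Ccr6, under the filter of a mean of 1 RPKM, stood at 0.257, 0.193 and 0.172 RPKM, below all 3 naive samples, and the two-sided exact permutation test gave p = 0.1, the smallest that 3 against 3 samples allow. Thus 4 of the 6 members tested passed, all 4 higher, and the same 4 did not overlap between the groups, in a comparison in which 82.9% of all 9728 genes tested passed and 85.4% did not overlap. The median of all genes in this comparison was -0.14, and with median-of-ratios factors it moved by 0.15, after which Cmklr1 differed by 0.23 (adjusted p = 0.011 in limma).

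The same comparison carried a change of the whole cell population, and its part in the receptor values was not tested. The 10 microglia markers summed to between 17015 and 17694 RPKM in naive mice and to between 1425 and 2066 RPKM under vehicle, with all 10 lower. The 8 monocyte markers summed to between 386 and 425 RPKM in naive mice, with Vcan under 0.1 RPKM, and to between 6035 and 6277 RPKM under vehicle, with all 8 higher. The 8 macrophage markers went from between 526 and 687 RPKM to between 5105 and 8069 RPKM, with 7 of 8 higher. In such bulk samples, fewer cells of a type and less RNA per cell cannot be told apart.

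**Figure D1:**
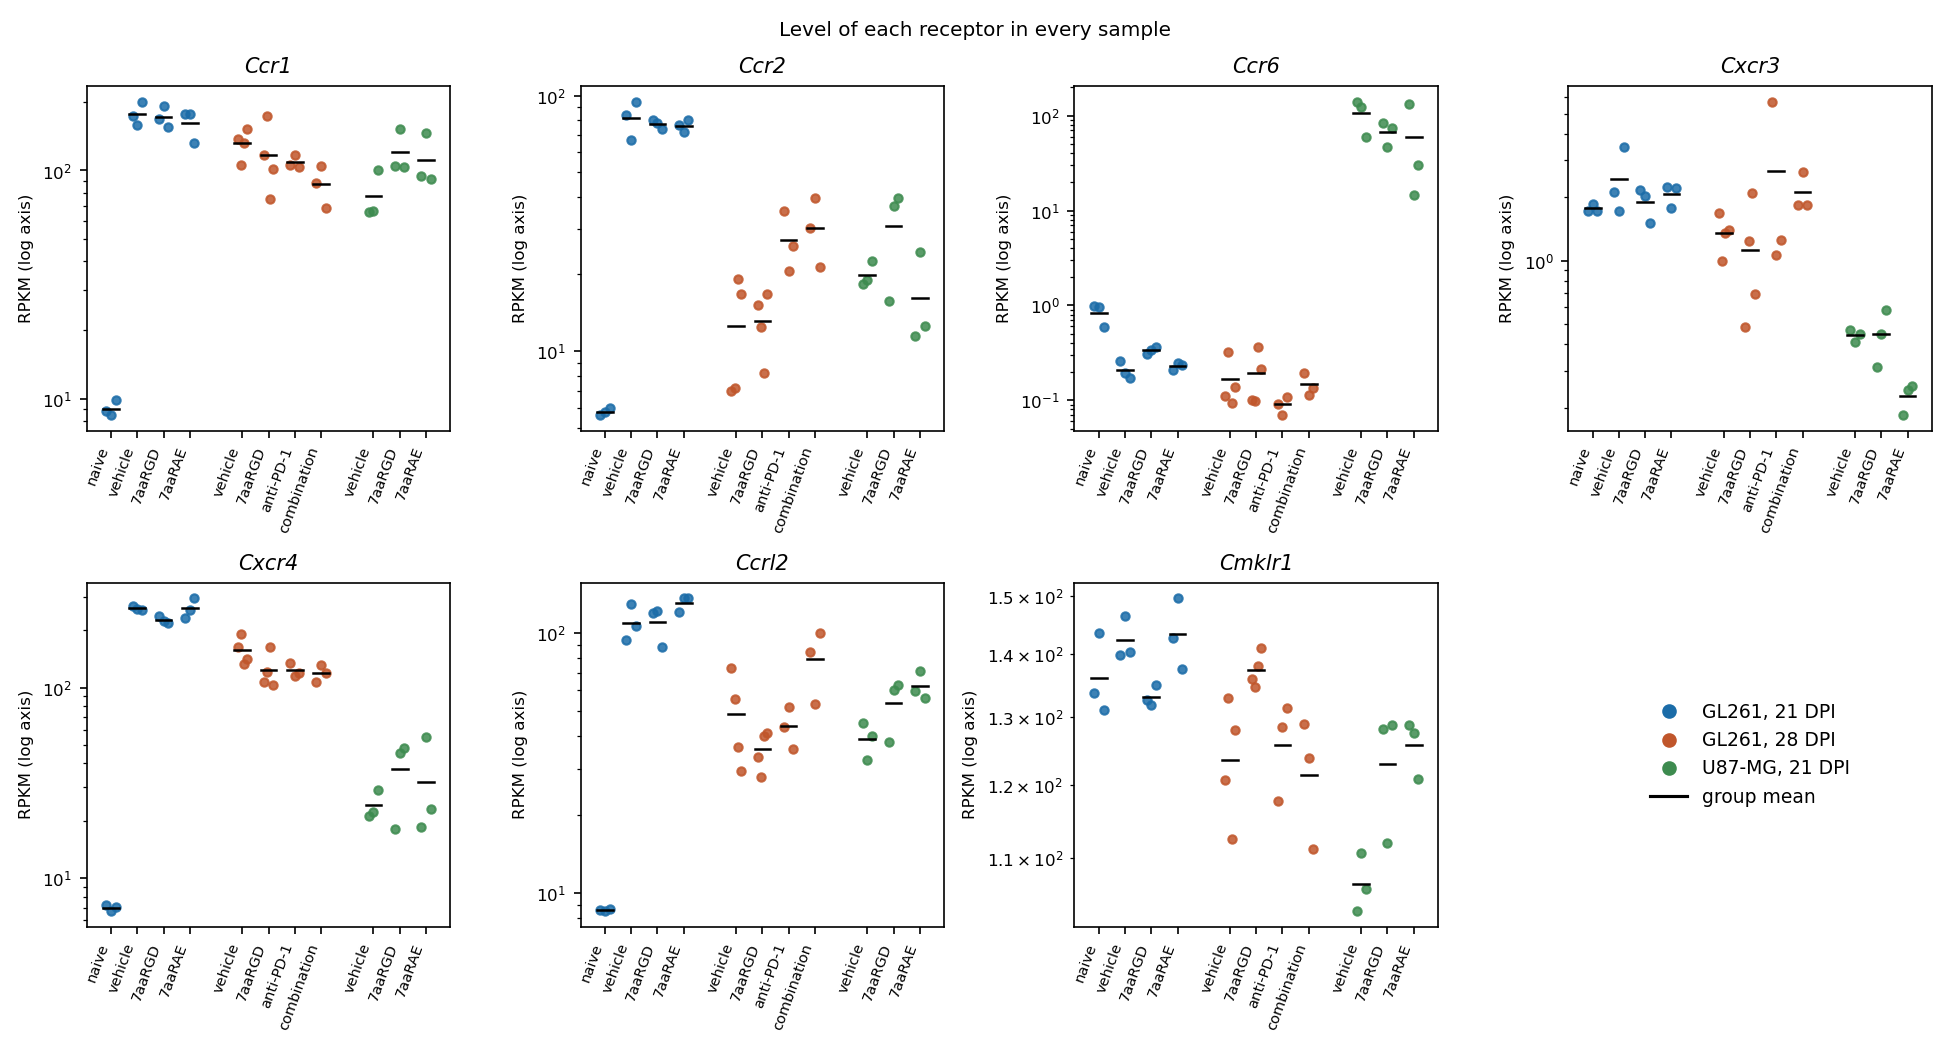
RPKM of the 7 receptor genes by treatment group in the 3 tables, each gene on a log axis of its own range, with 1 point per sample and a line at each group mean. Cxcr4, Ccr1, Ccr2 and Ccrl2 sit at 5.63 to 9.87 RPKM in the 3 naive samples and at 66.9 RPKM or more in every GL261 vehicle sample at 21 DPI, Cmklr1 stays between 103 and 149.6 RPKM throughout, and Ccr6 reaches 14.7 to 141 RPKM in U87-MG samples and stays under 1 RPKM elsewhere.

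The ligands of these receptors rose with the glioma at 21 DPI, apart from those of Ccr6, Cxcr4, Cmklr1 and Ccrl2. Of the 14 ligand genes, 10 were abundant enough to test. Of the 10, 9 rose and none fell, with a median difference of 2.20 against -0.14 for all genes, 82.9% of which passed. Cxcl9, a ligand of Cxcr3, went from 0.433 ± 0.194 RPKM in naive mice to 269.9 ± 94.1 RPKM under vehicle (SD, n = 3 each, a log2 difference of 7.52), and Ccl5, a ligand of Ccr1, from 1.60 ± 0.61 to 457 ± 161 RPKM (7.41). The Ccr2 ligand Ccl2 went from 6.22 ± 1.19 to 55.0 ± 16.3 RPKM (2.92), and Ccl7 from 5.99 ± 1.55 to 37.4 ± 16.5 RPKM (2.4). Ccl20, the ligand of Ccr6, was at 0.042 RPKM or less in every sample of all 3 tables, Cxcl12, the ligand of Cxcr4, at 0.187 RPKM or less and Rarres2, the ligand of Cmklr1 and Ccrl2, at 0.336 RPKM or less. The sorted cells thus held little RNA for the ligands of Ccr6, Cxcr4, Cmklr1 and Ccrl2, and cells outside the sort were not measured.

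Other receptors of the family went their own ways in the same samples. Of 19 in the tables, 4 could be tested. Ccr7, the receptor of mature dendritic cells for lymph node chemokines, rose from 0.292 ± 0.153 to 44.7 ± 6.29 RPKM (log2 difference 5.14), while Cx3cr1 fell from 2328 ± 107 to 222 ± 47.8 RPKM (-3.41). Of 21 genes tested that act below the receptors (G protein subunits, receptor kinases, arrestins, RGS proteins and the Dock2 module for movement), 10 rose and 10 fell, with a median of -0.05. Of all genes tested in this comparison, 82.9% passed. Rgs1, which shortens G protein signals, rose by 1.96 and Gng5, a G protein subunit, by 1.08, while Elmo1, a partner of Dock2, fell by 2.26 and Rgs10 fell by 1.89 on the log2 scale.

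On chromosome 9, neighbouring receptor genes were not at like levels. From Ccr1 to Ccr2 the order is Ccr1, Ccr1l1, Ccr3 and Ccr2, with 8.55 kb between Ccr1 and Ccr1l1 and 70.3 kb between Ccr3 and Ccr2. From naive to vehicle, the group mean of Ccr1 went from 9.08 to 177 RPKM and that of Ccr2 from 5.80 to 81.9 RPKM, while Ccr1l1 went from 1.74 to 0.104 RPKM and Ccr3 from 0.609 to 0.502 RPKM. Receptor genes of this family share stretches of sequence. Per the methods, only reads that reached a cut-off of mapping quality were counted. How many reads of shared stretches were dropped cannot be told from the values, so the levels of these genes are uncertain to that extent.

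**Figure D2:**
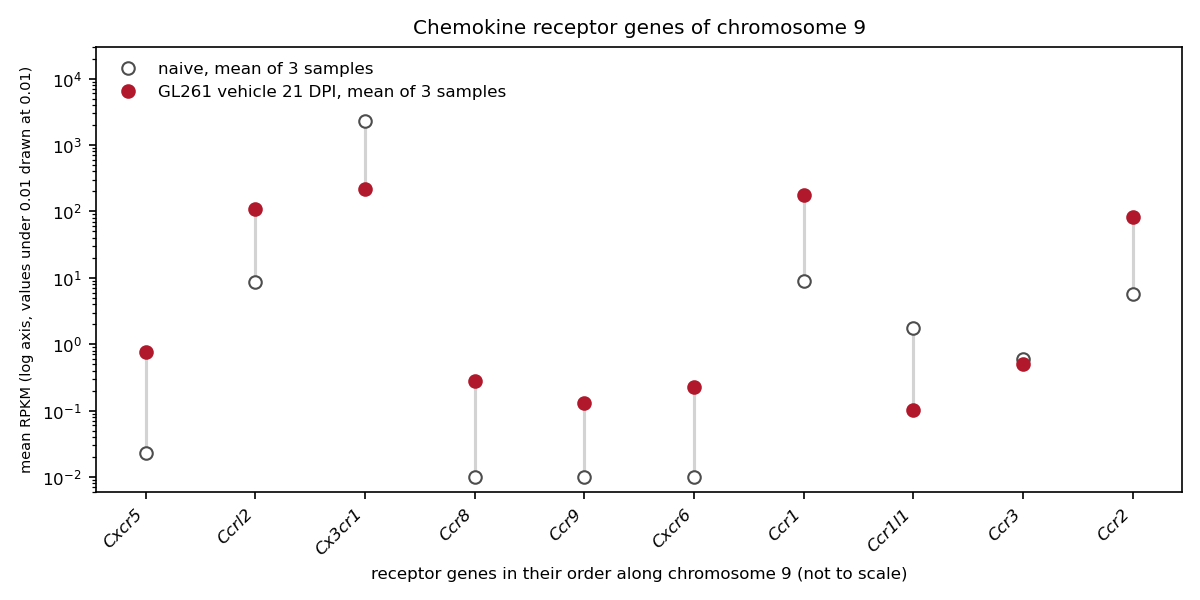
Mean RPKM (3 samples each, log axis, values under 0.01 RPKM drawn at 0.01) of 10 receptor genes of chromosome 9 up to Ccr2 that reach 0.1 RPKM in either group, in their order along it, not to scale, with open points for naive mice and filled points for GL261 vehicle at 21 DPI. Ccr1 and Ccr2 are higher in the GL261 vehicle group at 21 DPI than in naive mice (177 against 9.08 RPKM and 81.9 against 5.80 RPKM), while Cx3cr1 is lower (222 against 2328 RPKM).

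The next question was whether the integrin-blocking peptide shifted these receptors in GL261 gliomas at 21 DPI. No member passed for either peptide. Under 7aaRGD, Cxcr4 stood at 237, 224 and 219 RPKM, each below the lowest vehicle sample of 254 RPKM, with a difference of -0.20 (95% interval -0.39 to -0.002, unadjusted p = 0.049, adjusted p = 0.37 in limma). Cmklr1 stood at 133, 132 and 135 RPKM, also below all 3 vehicle samples, with a difference of -0.09 (-0.22 to 0.03, adjusted p = 0.50 in limma). These were the 2 of 6 tested members whose groups did not overlap, against 17.6% of all genes, while 0.148% of all 9441 genes tested passed in this comparison. The oligodendrocyte lineage markers summed to between 23.2 and 33.1 RPKM under 7aaRGD against 13.4 to 20.6 RPKM under vehicle. The 10 microglia markers summed to between 2127 and 2835 RPKM against 1425 to 2066 RPKM, and the plasmacytoid dendritic cell markers to between 461 and 522 RPKM against 377 to 442 RPKM. None of these overlapped. The microglia and plasmacytoid lists share Siglech, so their rises are not separate. Naive sorted cells summed to between 404 and 419 RPKM on the plasmacytoid list, with Ccr9 and Klk1 under 0.1 RPKM, so that sum does not mark plasmacytoid dendritic cells alone. The T cell markers summed to between 5.19 and 12.8 RPKM against 1.14 to 5.75 RPKM, which overlapped. The part of such cells in the receptor values was not tested.

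Ccr1 was at 168, 192 and 155 RPKM under 7aaRGD, Ccr2 at 80.2, 78.3 and 73.7 RPKM, and Ccrl2 at 119, 122 and 88.2 RPKM, each overlapping vehicle. Their differences from vehicle were -0.05, -0.07 and -0.001, with intervals between -0.35 and 0.32. Cxcr3 stood at 2.16, 2.04 and 1.51 RPKM. Ccr6 stood at 0.304, 0.338 and 0.361 RPKM, above the 3 vehicle samples at a level well under 1 RPKM (exact permutation p = 0.1, two-sided, adjusted p = 0.2 over 12 such tests).

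Under 7aaRAE, each member overlapped vehicle. Ccrl2 stood at 120.03, 136 and 136 RPKM, a difference of 0.26 (-0.06 to 0.58, adjusted p = 0.72 in limma). Cxcr4 stood at 231, 257 and 294 RPKM, Ccr1 at 177, 177 and 132 RPKM, Ccr2 at 76.8, 71.7 and 80.0 RPKM and Cmklr1 at 143, 149.6 and 138 RPKM. Cxcr3 stood at 2.25, 1.77 and 2.23 RPKM. Of the 6 members tested with limma, 0 passed, 0 had an unadjusted p under 0.05 and 0 did not overlap, against 0% of all genes passing, 601 genes with an unadjusted p under 0.05 and 12.6% of genes not overlapping.

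The peptides differ in their integrin motif and were given in the same way, and for none of the 6 members did they differ past the threshold. Over the 12 pairs of values compared in the 2 models, p-values were adjusted over all genes of each table. 7aaRGD minus 7aaRAE was -0.19 for Cxcr4 (95% interval -0.39 to 0.002, adjusted p = 0.90 in limma), -0.26 for Ccrl2 (-0.58 to 0.06), -0.10 for Cmklr1 (-0.23 to 0.02), 0.09 for Ccr1 (-0.21 to 0.40), 0.02 for Ccr2 (-0.23 to 0.28) and -0.09 for Cxcr3 (-0.47 to 0.28). These intervals leave room for a difference of up to 0.58 for Ccrl2. Cmklr1 was the 1 member whose peptide groups did not overlap, against 11.4% of all genes, and 0% of genes passed in limma, with 521 at an unadjusted p under 0.05. For Ccr6 the 3 values under 7aaRGD lay above 0.207, 0.249 and 0.232 RPKM under 7aaRAE (exact permutation p = 0.1, two-sided). The ligands (10 tested), other receptors (4) and signalling genes (22) gave 0 calls in limma in each of these 3 comparisons.

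At 28 DPI, the vehicle gliomas held the receptors in the same order as at 21 DPI, each with a lower mean, although the tables were scaled separately and levels across them were not tested. Cxcr4 stood at 164, 189.9, 134 and 142 RPKM, Ccr1 at 137, 106, 132 and 151 RPKM and Cmklr1 at 121, 133, 113 and 128 RPKM, and these 3 overlapped. Ccrl2 stood at 72.9, 55.4, 36.5 and 29.5 RPKM and Ccr2 at 7.00, 7.18, 19.2 and 16.8 RPKM, 2 samples low and 2 high. Cxcr3 was at 1.68, 1.00, 1.36 and 1.40 RPKM and Ccr6 at 0.11, 0.322, 0.0940 and 0.137 RPKM, the lowest of the 7 again.

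Ccr2 was higher when anti-PD-1 was given, alone or with 7aaRGD. It stood at 35.3, 20.5 and 25.8 RPKM under anti-PD-1, each above all 4 vehicle samples, the nearest pair being 20.5 and 19.2 RPKM. Under the combination it stood at 30.3, 39.7 and 21.3 RPKM, also above every vehicle sample. Under 7aaRGD alone it stood at 15.1, 12.4, 8.21 and 16.8 RPKM, within the vehicle range.

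The rise in Ccr2 against vehicle was 1.16 for anti-PD-1 (SE 0.346, adjusted p = 0.029 in limma) and 1.30 for the combination (SE 0.346, adjusted p = 0.0084 in limma), and that of the combination against 7aaRGD was 1.15 (SE 0.346, adjusted p = 0.019 in limma). These comparisons share samples and are not independent of each other. The combination and anti-PD-1 alone differed by 0.15 (95% interval -0.65 to 0.94), and 7aaRGD and vehicle by 0.15 (-0.54 to 0.84, adjusted p = 0.86 in limma). The call for anti-PD-1 was lost when vehicle sample 1 or 2, or anti-PD-1 sample 1 or 3, was left out. It was also lost with no filter on low values and with only the groups compared. Its adjusted p in limma lay between 0.012 and 0.106 over all alternatives, whereas the call of the combination against vehicle held in 16 of 16. The call of the combination against 7aaRGD held in 13 of 16 and was lost, with adjusted p up to 0.083, when 7aaRGD sample 3 or combination sample 1 or 2 was left out.

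Between groups, the monocyte markers were higher where Ccr2 was, and their part in its rise was not tested. Within groups, samples ran in the same order by both under the combination, but not under vehicle, 7aaRGD or anti-PD-1. Anti-PD-1 sample 2 had the highest monocyte sum of its group, 6412 RPKM, and the lowest Ccr2, 20.5 RPKM. The 8 monocyte markers summed to between 2695 and 3261 RPKM under vehicle, between 2643 and 3643 RPKM under 7aaRGD, between 4208 and 6412 RPKM under anti-PD-1 and between 5692 and 7554 RPKM under the combination, and 6 of 8 were higher against vehicle in each of the latter. None of the 8 was under 0.1 RPKM in these groups. The Ccr2 ligands rose too. Ccl7 went from 4.05 ± 1.33 RPKM under vehicle (SD, n = 4) to 31.5 ± 4.01 RPKM under anti-PD-1 (n = 3) and 38.4 ± 3.01 RPKM under the combination (n = 3), and Ccl2 from 11.3 ± 3.94 to 43.6 ± 2.02 and 43.8 ± 5.37 RPKM. In contrast to Ccr2, both ligands were also higher under 7aaRGD alone, Ccl7 at 11.2 ± 2.90 RPKM (log2 difference 1.28, adjusted p = 0.032 in limma) and Ccl2 at 28.3 ± 9.0 RPKM (1.25, adjusted p = 0.034 in limma).

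**Figure D3:**
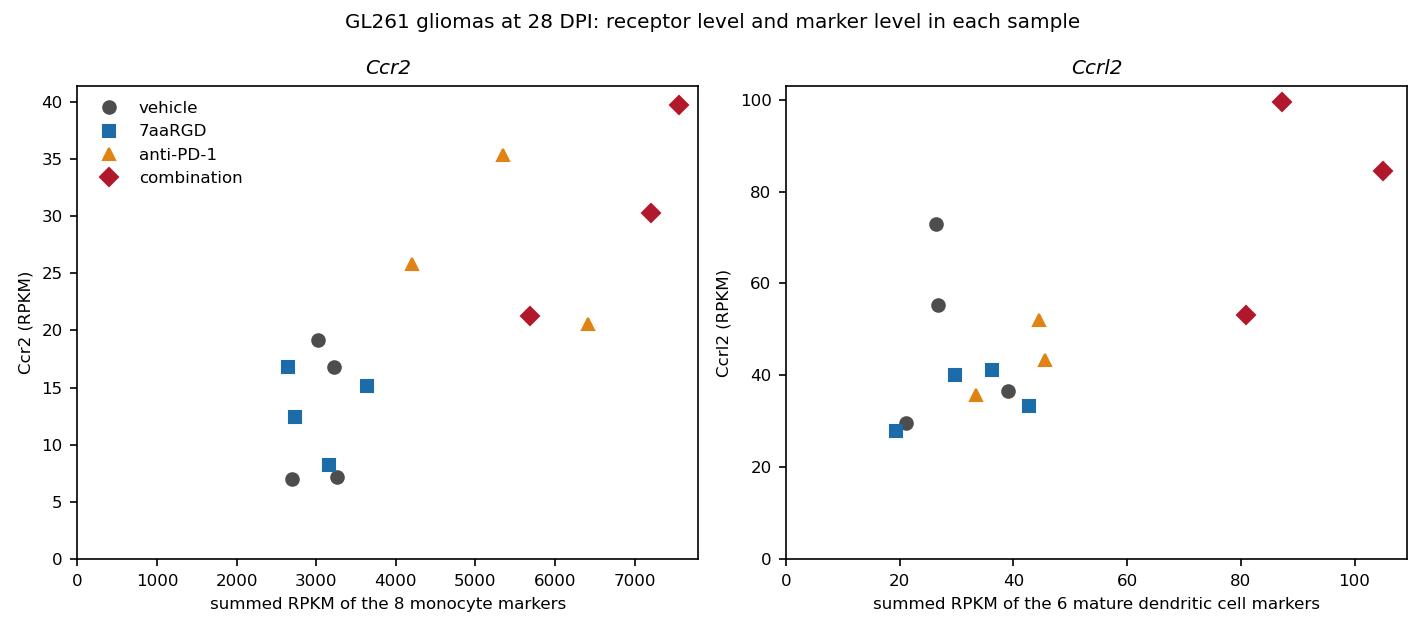
RPKM of Ccr2 (y axis) against the summed RPKM of the 8 monocyte markers (left), and of Ccrl2 against that of the 6 mature dendritic cell markers (right), in the 14 GL261 samples at 28 DPI, 1 point per sample, colored by treatment. The combination samples lie at Ccr2 values of 21.3 RPKM or more and monocyte sums of 5692 RPKM or more, and at Ccrl2 values of 53.2 RPKM or more and mature dendritic cell sums of 80.9 RPKM or more.

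The mean of Ccrl2 was highest under the combination. It stood at 84.4, 53.2 and 99.4 RPKM there, against 43.3, 52.0 and 35.8 RPKM under anti-PD-1 and 33.3, 27.9, 40.1 and 41.2 RPKM under 7aaRGD. All 3 combination samples lay above every sample of either single agent, but vehicle samples 1 and 2 reached into their range. Against 7aaRGD the combination was higher by 1.10 (SE 0.279, adjusted p = 0.0084 in limma), a call that held in 16 of 16 alternatives with differences between 0.91 and 1.36. Against vehicle it was higher by 0.73 (SE 0.279, adjusted p = 0.049 in limma), which held in 8 of 16, with adjusted p up to 0.191. Against anti-PD-1 the difference was 0.81 (95% interval 0.17 to 1.45, unadjusted p = 0.017, adjusted p = 0.23 in limma). The interaction, the amount by which the effect of both agents exceeded the sum of the single effects on the log2 scale, was 1.18 (0.33 to 2.03, unadjusted p = 0.010, adjusted p = 0.59 in limma) and did not pass.

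The summed markers of mature dendritic cells, like the mean of Ccrl2, were highest under the combination. The 6 summed to between 80.9 and 105 RPKM under the combination and between 33.4 and 45.6 RPKM under anti-PD-1. Under 7aaRGD they summed to between 19.3 and 42.7 RPKM, and under vehicle to between 21.1 and 39.0 RPKM. None of the 6 was under 0.1 RPKM in these groups. Of the 5 tested, 4 passed higher and 0 lower in the combination against 7aaRGD. Against vehicle, 4 passed higher and 1 passed lower. Ccr7, 1 of the other receptors, went from 0.684 ± 0.236 RPKM under vehicle (SD, n = 4) to 5.45 ± 0.88 RPKM under the combination (n = 3, log2 difference 1.94). Vehicle samples 1 and 2, with Ccrl2 at 72.9 and 55.4 RPKM, had sums of 26.4 and 26.8 RPKM, against 39.0 and 21.1 RPKM in vehicle samples 3 and 4. The part of these cells in the Ccrl2 values was not tested.

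Ccr1 fell under the combination, and Cxcr4 lay lower without passing. Ccr1 stood at 88.4, 104 and 68.5 RPKM, all below the lowest vehicle sample of 106 RPKM, a difference of -0.60 (SE 0.221, adjusted p = 0.042 in limma) that held in 7 of 16 alternatives, with adjusted p up to 0.179. Leaving out vehicle sample 4, combination sample 1 or combination sample 3 took the number of members that passed from 3 to 1. Cxcr4 stood at 107, 131 and 119 RPKM, below all 4 vehicle samples, with a difference of -0.39 (-0.72 to -0.06, adjusted p = 0.056 in limma). Under anti-PD-1, Ccr1 was at 106, 117 and 103 RPKM and Cxcr4 at 135, 114.5 and 119.6 RPKM (a Cxcr4 difference of -0.34, adjusted p = 0.13 in limma). Under 7aaRGD, Ccr1 spread from 74.7 to 172 RPKM (117, 172, 74.7 and 102 RPKM) and Cxcr4 stood at 107, 121, 164 and 103 RPKM (-0.35, unadjusted p = 0.027, adjusted p = 0.27 in limma).

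Beside these values, 3 of the 8 macrophage markers were lower under the combination than under vehicle, with sums between 10891 and 13204 RPKM against 14327 to 17394 RPKM, and 6 of the 10 microglia markers were higher, with sums between 2519 and 2681 RPKM against 1678 to 2341 RPKM. The 6 oligodendrocyte lineage markers summed to between 16.9 and 18.5 RPKM against 26.2 to 40.2 RPKM. The part of any of these in the Ccr1 and Cxcr4 values was not tested.

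Cmklr1 varied little at 28 DPI. It stood at 136, 135, 138 and 141 RPKM under 7aaRGD, above all 4 vehicle samples by 0.16 (95% interval 0.01 to 0.30, unadjusted p = 0.036, adjusted p = 0.30 in limma). It stood at 118, 128 and 131 RPKM under anti-PD-1 and at 129, 124 and 111 RPKM under the combination, which lay below every 7aaRGD sample by 0.18 on the log2 scale (adjusted p = 0.065 in limma). Cxcr3 was at 5.69, 1.06 and 1.26 RPKM under anti-PD-1, where sample 1 stood alone, and at 1.84, 2.65 and 1.84 RPKM under the combination, above the highest vehicle sample of 1.68 RPKM, with a difference of 0.40 (adjusted p = 0.37 in limma). Under 7aaRGD, Cxcr3 stood at 0.482, 1.24, 2.09 and 0.694 RPKM. The 8 NK markers, whose cells carry Cxcr3, summed to between 3.64 and 12.5 RPKM under vehicle and between 29.5 and 84.0 RPKM under the combination, and to 52.4, 71.0 and 5.12 RPKM in anti-PD-1 samples 1 to 3. The 8 T cell markers summed to between 1.30 and 2.16 RPKM under vehicle, between 3.48 and 6.63 RPKM under the combination, and to 5.85, 3.15 and 1.30 RPKM in anti-PD-1 samples 1 to 3, highest in the sample that was highest in Cxcr3. Under vehicle, Cd3d, Cd3e, Cd3g, Cd8a and Cd8b1 of the T cell list and Klre1 and Eomes of the NK list were under 0.1 RPKM. The part of these cells in the Cxcr3 values was not tested. Ccr6 stayed at 0.362 RPKM or less in all 14 samples, and its exact permutation p-values lay between 0.1 and 0.943.

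In counts, 0 of the 6 members tested passed for 7aaRGD against vehicle in limma, with 2 at an unadjusted p under 0.05 and 1 not overlapping, against 0.647% of all genes passing and 8% not overlapping. For anti-PD-1 against vehicle, 1 passed, higher, and 1 did not overlap, against 23.1% and 32.4% of all genes. For the combination against vehicle, 2 passed higher and 1 lower, and 4 did not overlap, against 43.3% and 48.8%. For the combination against 7aaRGD, 2 passed, both higher, and 3 did not overlap, against 36.6% and 40.4%. For the combination against anti-PD-1, 0 passed in limma, 1 had an unadjusted p under 0.05 and 1 did not overlap, against 0.0411% and 21.5%. For the interaction, 0 passed in limma with 1 at an unadjusted p under 0.05, against 0% of all genes, of which 794 had an unadjusted p under 0.05. The shares of the members called were thus near those of all genes.

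Ligands were higher where anti-PD-1 was given. Against vehicle, 5 of 10 ligands tested were higher under anti-PD-1 (median 0.76), led by Ccl7 (2.72) and Ccl2 (1.91), and 6 of 10 under the combination (median 0.97), led by Ccl7 (3.00) and Ccl5 (1.97), while none fell. Ccl5 went from 164.5 ± 72.4 RPKM under vehicle (SD, n = 4) to 395 ± 77.1 RPKM under anti-PD-1 (n = 3) and 614 ± 124 RPKM under the combination (n = 3). The medians of all genes in these comparisons were -0.005 and -0.05, and 23.1% and 43.3% of all genes passed. Under 7aaRGD alone 2 of 10 were higher, the Ccl2 and Ccl7 named above, and the combination and anti-PD-1 differed in 0 of 10 in limma.

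Below the receptors, Rgs1 fell from 49.9 ± 20.5 RPKM under vehicle (SD, n = 4) to 13.3 ± 6.22 RPKM under the combination (n = 3, log2 difference -1.84), and Grk6, a kinase that switches receptors off, from 31.5 ± 2.24 to 14.8 ± 0.84 RPKM (-1.04). Of 21 signalling genes tested, 3 passed higher and 6 lower under the combination against vehicle, and 4 passed lower under anti-PD-1. Of all genes tested, 43.3% and 23.1% passed in these comparisons, so the signalling genes were called at about the share of all genes.

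**Figure D4:**
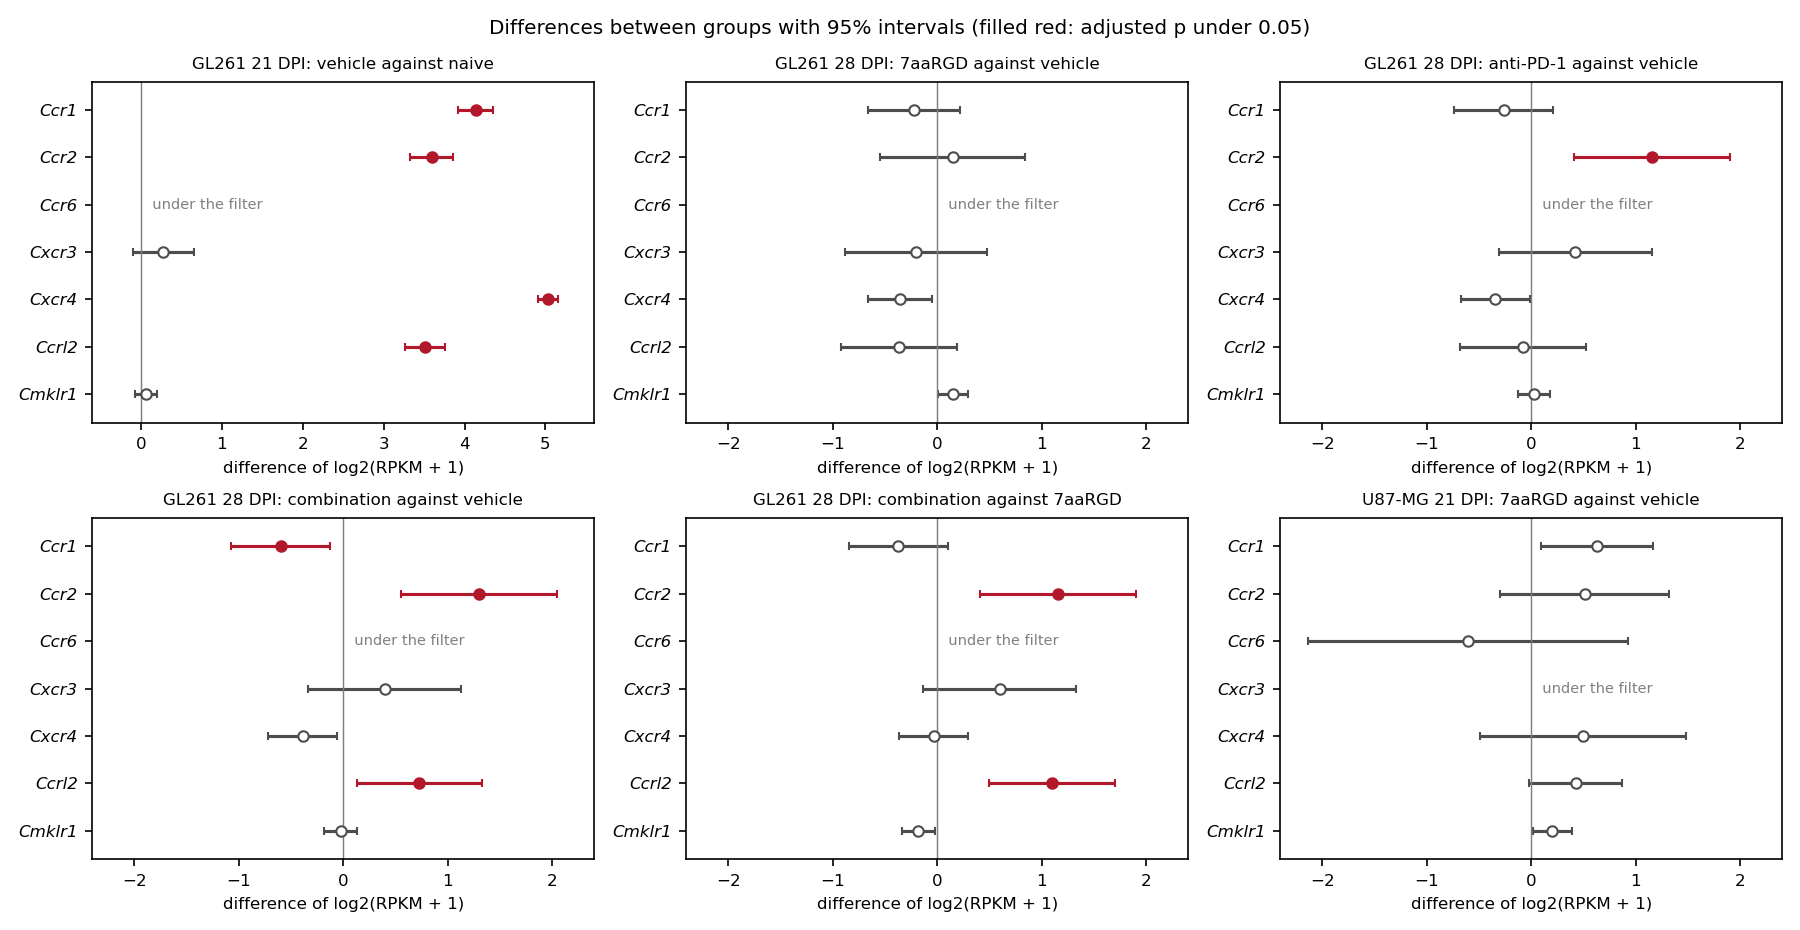
Differences of log2(RPKM + 1) of the receptor genes with 95% intervals for 6 of the comparisons, with filled red points where the adjusted p in limma is under 0.05 and genes under the filter named as such. The vehicle-against-naive differences of 3.51 to 5.03 exceed every treatment difference shown, the largest of which is 1.30 for Ccr2 in the combination against vehicle.

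In U87-MG tumors, the receptor profile differed from that of GL261 gliomas in 1 gene above all, Ccr6. It stood at 141, 122 and 59.1 RPKM under vehicle, rank 362 of 9681 genes at 1 RPKM or more and about level with Cmklr1, whereas no sample of either GL261 table passed 0.978 RPKM. Under 7aaRGD it stood at 82.7, 46.3 and 74.5 RPKM and under 7aaRAE at 132, 14.7 and 30.2 RPKM. The groups overlapped, and the differences from vehicle were -0.60 (95% interval -2.13 to 0.93) for 7aaRGD and -1.33 (-2.87 to 0.20, adjusted p = 0.66 in limma) for 7aaRAE. The naive samples of this strain were not analysed here, so host strain, tumor line and table cannot be told apart as the origin of the level.

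Markers of cells known to carry Ccr6 were present at unequal levels in the U87-MG samples. The 5 B cell markers summed to between 2.37 and 8.50 RPKM over the 9 samples, with Ms4a1 and Pax5 under 0.1 RPKM in each group, and the 8 conventional dendritic cell markers to between 9.07 and 25.0 RPKM, with Clec9a and Xcr1 under 0.1 RPKM. The 6 mature dendritic cell markers summed to between 107 and 272 RPKM over the 9 samples, with Socs2 under 0.1 RPKM, most of it from Fscn1 (226 ± 26.2 RPKM under vehicle, SD, n = 3), which naive sorted cells also held at 439.6 ± 15.1 RPKM (n = 3). The 6 plasmacytoid dendritic cell markers summed to between 169.8 and 339 RPKM, with Ccr9 and Klk1 under 0.1 RPKM, most of it from Siglech (187 ± 44.97 RPKM under vehicle), which naive sorted cells held at 347 ± 8.98 RPKM. T cell markers summed to between 0.502 and 1.67 RPKM, with Cd3d, Cd3e, Cd3g, Cd8a and Cd8b1 under 0.1 RPKM in each group. The part of any of these cells in the Ccr6 values was not tested. Its known ligand Ccl20 was near 0 in the same samples, as given above.

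The means of Ccr1, Ccr2, Cxcr4 and Ccrl2 lay between those of the naive and the GL261 vehicle group at 21 DPI, and those of Cmklr1 and Cxcr3 below both, a comparison across tables that was not tested. Under vehicle, Cmklr1 stood at 103, 111 and 106 RPKM, Ccr1 at 66.1, 66.5 and 100.1 RPKM and Ccrl2 at 44.9, 32.4 and 40.0 RPKM. Cxcr4 stood at 21.2, 22.3 and 29.1 RPKM and Ccr2 at 18.2, 18.9 and 22.5 RPKM, which overlapped, and Cxcr3 at 0.470, 0.409 and 0.448 RPKM. By mean the order was Ccr6, Cmklr1, Ccr1, Ccrl2, Cxcr4, Ccr2 and Cxcr3, where the samples of Ccr6 overlapped those of both Cmklr1 and Ccr1. The 10 microglia markers summed to between 6834 and 11429 RPKM over the 9 samples and the 8 monocyte markers to between 1425 and 4199 RPKM.

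Treatment left the receptors of U87-MG tumors without a change that passed. Ccr1 stood at 105, 153 and 103 RPKM under 7aaRGD, above all 3 vehicle samples, by 0.63 (SE 0.237, unadjusted p = 0.026, adjusted p = 0.94 in limma), and at 94.3, 146 and 91.7 RPKM under 7aaRAE, overlapping vehicle, by 0.50 (-0.03 to 1.04). Ccrl2 stood at 59.7, 71.1 and 56.3 RPKM under 7aaRAE, above all 3 vehicle samples, by 0.67 (0.22 to 1.11, unadjusted p = 0.0080, adjusted p = 0.47 in limma), and at 37.9, 60.1 and 62.7 RPKM under 7aaRGD, by 0.42 (-0.02 to 0.87). Cmklr1 was above all 3 vehicle samples under both peptides, at 128, 112 and 129 RPKM under 7aaRGD (0.20, unadjusted p = 0.039, adjusted p = 0.94 in limma) and at 129, 127.5 and 121 RPKM under 7aaRAE (0.23, unadjusted p = 0.020, adjusted p = 0.54 in limma). The 2 differences share the vehicle samples.

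Cxcr4 stood at 18.1, 45.3 and 48.4 RPKM under 7aaRGD and at 18.6, 54.7 and 23.0 RPKM under 7aaRAE, and Ccr2 at 15.7, 37.1 and 39.8 RPKM and at 11.4, 24.4 and 12.6 RPKM, with wide spread in both. Cxcr3 stood at 0.314, 0.446 and 0.582 RPKM under 7aaRGD and at 0.185, 0.243 and 0.254 RPKM under 7aaRAE, the latter below all vehicle samples (exact permutation p = 0.1, two-sided, the smallest possible, adjusted p = 0.2). Beside Cxcr3, the 8 NK markers summed to between 7.99 and 21.8 RPKM under vehicle, between 1.52 and 7.33 RPKM under 7aaRGD and between 0.330 and 2.10 RPKM under 7aaRAE. Of the 8, 2, 3 and 5 were under 0.1 RPKM in these groups. The 8 T cell markers summed to between 1.07 and 1.67 RPKM, 0.822 and 1.09 RPKM, and 0.502 and 0.716 RPKM in the same order. Cd3d, Cd3e, Cd3g, Cd8a and Cd8b1 were under 0.1 RPKM in each of these groups, so the T cell sums come mostly from Cd4, Cd5 and Lck. The part of either in the Cxcr3 values was not tested.

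In U87-MG tumors 7aaRGD and 7aaRAE again did not differ past the threshold for any member. 7aaRGD minus 7aaRAE was 0.87 for Ccr2 (95% interval 0.06 to 1.68, adjusted p = 1.00 in limma), 0.73 for Ccr6 (-0.80 to 2.26), 0.25 for Cxcr4 (-0.74 to 1.24), 0.13 for Ccr1 (-0.41 to 0.66), -0.24 for Ccrl2 (-0.69 to 0.20) and -0.03 for Cmklr1 (-0.22 to 0.15). The interval is widest for Ccr6, which this number of samples could not narrow, and narrowest for Cmklr1. In limma, 0 of the 6 members passed in each of the 3 comparisons, with 2, 2 and 1 at an unadjusted p under 0.05 for 7aaRGD against vehicle, 7aaRAE against vehicle and 7aaRGD against 7aaRAE. The numbers not overlapping were 2, 2 and 0. Of all 9665 genes tested, 0%, 0.0103% and 0% passed and 10.8%, 16.5% and 6.47% did not overlap, and before adjustment 364, 746 and 327 of them fell below 0.05. No ligand, other receptor or signalling gene passed in limma in these comparisons.

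Across the 32 tumor-bearing samples, with the mean of each table subtracted, each member had its own closest genes among 8911 candidates. These are descriptions, since the samples of a table share its treatments and the authors' adjustment. Ccr2 went most closely with Crip1 (Pearson r = 0.85), S100a10 (0.84) and Mcub (0.84), Ccrl2 with Fosl2 (0.85), Nfil3 (0.85) and Tgif1 (0.84), and Ccr1 with Hip1 (0.81), Fgd4 (0.80) and Ptpn12 (0.80). Cxcr4 went with Fkbp1b (0.80), Pqlc3 (0.78) and Bcl2l11 (0.78), Cxcr3 with Arhgef10l (0.77), Gm15448 (0.75) and Jarid2 (0.75), Ccr6 with Ebi3 (0.76), Glo1 (0.75) and Ly6e (0.75), and Cmklr1 with Mlxip (0.70), Dnajc16 (0.65) and March1 (0.65). The members went less closely with each other, with r between -0.53 for Ccr6 and Cxcr4 and 0.45 for Ccr2 and Cxcr3, so the 7 genes did not form 1 block.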

How the data were processed

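RNA from CD11b+ cells, sorted by FACS from naive or tumor-bearing hemispheres, was converted to strand-specific poly(A) libraries. Per the labels and the methods, the authors used Trimmomatic for trimming, STAR for alignment to mm10, HTSeq 0.11.1 for counts per gene and NOISeq for normalization. The deposited values are RPKM to which a constant of 2 was added, as judged from the values, since 49.8% to 52.4% of rows hold that constant in all samples and, after its removal, sums of value times exonic length come to between 0.988 and 1.01 of the total that RPKM implies. Between 3.13% and 8.78% of values lay below the constant, so the authors adjusted the values after scaling. The depth behind the values is unknown and no counting error can be given. In the U87-MG table the other deposited columns, listed by number, hold RPKM plus the constant too, and the header repeats 1 replicate number, so columns were mapped to groups only.

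The constant was subtracted, negative values were set to 0, and log2(RPKM + 1) was tested over protein-coding genes whose mean reached 1 RPKM with limma 3.58.1 (R 4.3.3, intensity trend, Benjamini-Hochberg adjustment over all genes tested, threshold 0.05), separately in each table. Fold changes on this scale understate those of low genes. Samples at 28 DPI are single animals, and at 21 DPI pools of 2. Where nothing shows separate cultures or cohorts, p-values measure the spread between these samples. One direction of the residuals was nearly empty in both GL261 tables, with singular values of 0.056 and 0.091 of the largest, so p-values there may be too small. Members under the filter were compared by two-sided exact permutation tests, 12 in all, with adjusted p over them. Groups were taken from the sample titles. The script was tested on simulated data.

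The members, and the lists of ligands, other receptors, signalling genes and cell markers, were chosen with earlier results of these data known. All members were named, other genes only as a ligand or neighbour or with the largest rise or fall of their list, at most 2 of each. The alternatives were other pseudocounts, filters and scaling factors, all named genes, the replicate number as a block, only the groups compared, naive samples added, and each sample left out. Proteins were not used here, and some genes are not reported here.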

Additional observations from a re-analysis of the deposited data

Results flagged for a closer look

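Cmklr1, the chemerin receptor, was the 1 member that 7aaRGD set apart from vehicle in opposite directions in different experiments, with no overlap between the samples each time. Against vehicle it was lower in GL261 gliomas at 21 DPI (log2 difference -0.095, 3 of 3 samples below all vehicle samples), and higher in GL261 gliomas at 28 DPI (0.16, 4 of 4 samples above) and in U87-MG tumors (0.20, 3 of 3 samples above). The difference between the experiments was not tested, because the 3 tables were normalized separately, and none of the 3 differences passed in limma (adjusted p = 0.50, 0.30 and 0.94). Of all genes tested, 17.6%, 8% and 10.8% did not overlap in the same 3 comparisons. In U87-MG tumors the rise was not particular to 7aaRGD. The control peptide 7aaRAE also lay above all vehicle samples there (0.23, adjusted p = 0.54 in limma). In the 14 gene-by-group sets of 4 samples at 28 DPI, no sample lay far enough from the others to be called an outlier.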

How the results depend on the processing

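Of 1226 values of the members recomputed under the alternatives, 1124 kept their direction and their side of the threshold, 26 lost and 8 gained a call, 68 that were not called took the other sign, and none that was called reversed. The 4 rises against naive mice held in 14 of 14 alternatives each, and the count there was 4 to 5. For anti-PD-1 against vehicle, the number of members that passed went from 1 to 0 with no filter on low values and with only the groups compared, and lay between 0 and 1 with single samples left out. For the combination against vehicle it went from 3 to 1 with no filter and lay between 1 and 3 with single samples left out, and for the combination against 7aaRGD it was 2 and lay between 1 and 2. With no filter, more low genes enter the adjustment. The cause of the other losses was not tested.

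Scaling moved the split of all genes: 1707 of 4215 calls were higher for the combination against vehicle and 2225 of 4222 with TMM factors, and 1269 of 3561 and 1696 of 3239 for the combination against 7aaRGD. For 7aaRGD against vehicle the calls over all genes went from 14 to 0 at 21 DPI and from 63 to 0 at 28 DPI with TMM factors. With the replicate block, the combination against vehicle passed in 2 members in place of 3, where Ccr1 (adjusted p = 0.056) and Ccrl2 (0.112) lost and Cxcr4 (0.049) gained a call in limma, and no other call of a member changed. For samples of the same number, deviations from the group mean correlated over 0.1 in 1 of 9 pairs at 21 DPI and 3 of 19 at 28 DPI. Pairs of different number were not compared, and the authors had adjusted the values. This check therefore cannot show whether the numbers mark a shared batch or pairing. No paired analysis was possible for U87-MG tumors because the columns carry no replicate number. Depth is unknown, so levels under 1 RPKM, as those of Ccr6 in GL261 gliomas and of Cxcr3 in U87-MG tumors, have no known counting error.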
